A study of Mus musculus with 20 samples.

Results

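Zfp genes, the mouse genes named as numbered zinc finger proteins, were followed through the macrophage response to zymosan and through 2 disturbances of calcium handling. Members were the entries of the count table whose symbol is Zfp followed by a number, and they were chosen by their read counts, with at least 10 reads in 3 or more of the 20 libraries. This rule took 295 of 366 such entries, out of 21963 entries in all, and read neither the direction nor the size of any change. Of the members, 222 reached 10 reads in every library, and others could pass through the groups where they were higher. A member that is low with zymosan could thus enter through untreated libraries, and its fall is not independent of the rule. The median for members with 10 reads in every library is given with the processing alternatives. Of the 71 entries below the rule, 16 had no read in any library. Just inside the rule, Zfp30, Zfp239 and Zfp365 each reached 10 reads in 4 libraries, with maxima of 18, 16 and 19 reads. Just outside it, Zfp300, Zfp93, Zfp827 and Zfp473 reached 10 reads in 2 libraries, with maxima of 13, 10, 11 and 12. Zfp30 was the only member that reached 10 reads in a single group (untreated Mcu-/-), and it was the only one too low to be tested, so that 294 members were tested.

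The cells were bone marrow-derived macrophages (BMDMs), grown from marrow of the femur and tibia of mice aged 15 to 25 weeks for 7 d in medium conditioned by L929 cells. Groups were WT untreated (4 libraries), WT with zymosan for 3 h at 2 particles per cell (5 libraries), WT with the same zymosan and 10 µM BAPTA-AM (4 libraries), Mcu-/- untreated (4 libraries) and Mcu-/- with zymosan for 3 h (3 libraries), each a labelled biological replicate. Zymosan is a particle of yeast cell wall that macrophages engulf, and BAPTA-AM is a cell-permeant chelator of calcium. Mcu encodes the pore of the mitochondrial calcium uniporter, and the Mcu-/- cells came from mice with a floxed Mcu and a Cx3cr1-driven Cre, so that deletion depends on the activity of Cre in each cell. Untreated or Mcu-/- cells with BAPTA-AM were not analysed here. All cells of a culture were lysed together, so that a lower level per cell and fewer cells of a type cannot be told apart.

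Most Zfp proteins carry arrays of C2H2 zinc fingers, small folds held by a zinc ion that read short stretches of DNA. Many also have a KRAB domain at the N terminus, which recruits the corepressor TRIM28 and with it the methyltransferase SETDB1, HP1 proteins and other silencing factors, and these KRAB zinc finger proteins are best known for silencing transposable elements and imprinted loci. A few members do something else: Zfp36, also called tristetraprolin, has CCCH fingers, binds AU-rich elements in cytokine mRNAs and brings the CCR4-NOT deadenylase to them, and it is a classic early gene of activated macrophages.

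By translated coding sequences of the mm10 annotation, 159 members matched a pattern of the KRAB box in any of their transcripts and 136 showed no match. The narrower pattern first planned took 121 members, and a broader one was added to it. KRAB members had a median of 12 C2H2 fingers and the others 8, and Zfp36 was the only member with CCCH fingers, of which it had 2. Per length of exon, the median level was 0.883 CPM (read counts scaled to a common library total) per kb for KRAB members and 1.9 for the rest. On the same per-length scale Zfp36 had the highest mean level over all libraries, those with zymosan included, 115 CPM per kb, followed by Zfp800 at 26.1, Zfp706 at 23.7, Zfp281 at 23.4 and Zfp710 at 21. The members were thus mostly genes of low level: their median was 5.01 CPM against 22 CPM over all 11707 genes tested.

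The sequence before the gene start was a feature that many members shared and that the rule did not use. RefSeq promoter windows (GRCm38.p6, 250 bases before to 50 bases after a start) were given for 247 members, and among all words of 11 letters with 1 free letter inside, read on both strands, ACTACANTTCC (N for any base) was found in the windows of the most members, 38. This word, chosen on these windows, stood in 15.4% of them and in 21.3% of those of KRAB members, against 1.16% of the windows of all 27025 genes. The word resembles the core of the element known to be bound by ZNF143, whose mouse gene Zfp143 is itself a member. The letters CCGGAAG, the core of ETS factor sites, stood in 22.7% of the members' windows and in 9.93% of all. The 27025 genes, unlike the members, were not chosen by read counts. Pairs of C followed by G in a window had a median of 15 for members and 7 for all these genes. Matches of the 2 motifs may overlap, and GGGCGG, named further on, was searched in the same way. Shown first are 3 members that fell with zymosan and hold ACTACANTTCC, at chr7:24254544-24254743 (+ strand), chr13:67813566-67813765 (+ strand) and chr9:19621841-19622040 (+ strand), then Zfp36 and Zfp945, which rose, at chr7:28379279-28379478 (- strand) and chr17:22867185-22867384 (- strand). Each line runs 5′ to 3′ from 250 to 51 bases before the start on the strand of the gene, and capitals mark either motif.
Zfp108: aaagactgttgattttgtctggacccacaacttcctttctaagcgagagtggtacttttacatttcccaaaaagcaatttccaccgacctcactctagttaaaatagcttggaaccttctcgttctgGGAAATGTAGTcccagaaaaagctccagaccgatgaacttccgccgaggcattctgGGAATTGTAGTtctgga
Zfp273: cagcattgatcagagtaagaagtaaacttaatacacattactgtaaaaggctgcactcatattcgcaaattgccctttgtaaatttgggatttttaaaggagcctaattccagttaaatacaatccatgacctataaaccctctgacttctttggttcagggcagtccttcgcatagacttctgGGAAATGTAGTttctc
Zfp317: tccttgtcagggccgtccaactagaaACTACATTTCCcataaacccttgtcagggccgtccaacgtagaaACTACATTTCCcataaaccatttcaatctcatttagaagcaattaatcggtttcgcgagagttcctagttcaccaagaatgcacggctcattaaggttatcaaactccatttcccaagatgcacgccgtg
Zfp36: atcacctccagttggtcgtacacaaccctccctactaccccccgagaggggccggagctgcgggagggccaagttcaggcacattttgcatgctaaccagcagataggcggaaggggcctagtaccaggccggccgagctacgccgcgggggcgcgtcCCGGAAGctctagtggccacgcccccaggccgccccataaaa
Zfp945: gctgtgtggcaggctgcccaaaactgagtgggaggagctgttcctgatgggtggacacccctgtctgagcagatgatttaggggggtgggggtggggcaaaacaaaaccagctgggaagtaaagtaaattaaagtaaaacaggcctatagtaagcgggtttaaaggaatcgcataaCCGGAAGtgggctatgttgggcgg
ACTACANTTCC was read at 2 places in the window of Zfp108 and at 2 places in the window of Zfp317 that is shown. Another window of Zfp317, whose same stretch is at chr9:19622054-19622253 (+ strand), is not shown and held no copy. A member was counted as holding the word when any of its windows did.

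Libraries held 14420402 to 23954552 counted reads, and the members took 0.349% to 0.531% of them. Mcu itself, measured as normalized read count, lay between 54.2 and 83.4 in all 7 Mcu-/- libraries and between 126 and 197 in all 13 of WT, in the direction of the labels and above 0. Untreated Mcu-/- replicate 4 stood apart from the other 3 libraries of its group: the biological variation estimated by edgeR was 12.4% over all libraries and 3.56% without it, and the count of members called in each comparison is given with and without it. Macrophage markers summed to 8358 to 15276 CPM, and the 5 T cell markers to at most 1.59 CPM. The 4 fibroblast markers summed to 40.5 to 49.3 CPM in Mcu-/- zymosan libraries and 25.3 in untreated Mcu-/- replicate 4, against 0.621 to 1.64 in the other untreated Mcu-/- libraries and 2.13 to 5.0 in WT libraries; Col1a1 and Col1a2 made up nearly all of it, and Dcn and Pdgfra averaged at most 0.286 CPM in any group.

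Zymosan lowered most Zfp genes of WT BMDMs within 3 h. By edgeR's quasi-likelihood test at an adjusted p under 0.05, 228 of 294 members fell and 27 rose, where over all genes tested 36.8% fell and 32.4% rose. The median log2 fold change of the members was -1.05, against -0.044 over all genes. Of the KRAB members, 134 of 158 fell and 8 rose, with a median of -1.20, and of the members without a KRAB match 94 of 136 fell and 19 rose, with a median of -0.69. Called changes of at least 1 on the log2 scale were falls for 156 members and rises for 13. The share of all genes with called changes of that size was not counted, so these numbers have no background to be read against. The zymosan and untreated libraries did not overlap for 217 members that were lower and 27 that were higher, against 36.4% and 33.1% of all genes.

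**Figure D1:**
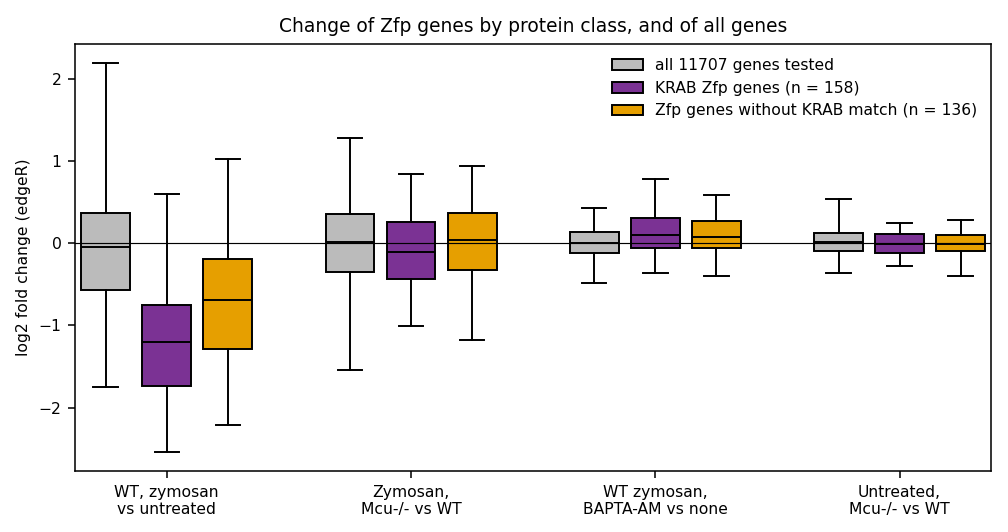
Log2 fold change (edgeR, vertical axis) of all genes tested (grey), KRAB Zfp genes (purple) and Zfp genes without a KRAB match (orange) in 4 comparisons; boxes show the quartiles with the median and whiskers the 5th to 95th percentile over genes. With zymosan in WT cells the medians are -0.044, -1.20 and -0.69, and in the other comparisons the medians of both classes lie between -0.10 and 0.097.

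The size of the change differed with the level of a gene, taken as its mean over all 20 libraries. The zymosan libraries enter that mean, so that a fall lowers it and a rise raises it. The trend over the ranges is thus built in in part. Members with a mean of under 50 normalized read counts had a median log2 fold change of -1.51, those from 50 to 200 one of -1.12 and those of 200 or more one of -0.33. All genes tested in the same 3 ranges had medians of -0.34, -0.47 and 0.068, so that the members lay lower than all genes in each range. Scaling by library totals in place of TMM shifted the median of all genes to -0.54 and that of the members to -1.54, with 265 members lower and 15 higher, against 68.5% and 15.7% of all genes. Without untreated Mcu-/- replicate 4, 235 members fell and 31 rose, against 41.3% and 37.2% of all genes.

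Among the members of at least 1 CPM the deepest falls were to nearly no reads. Zfp791, a KRAB gene, had 60, 54, 65 and 42 reads in the untreated WT libraries and 2, 3, 0, 2 and 1 with zymosan, a ratio of 29.1 with an exact 95% counting interval of 14.5 to 68.1. The KRAB gene Zfp108, which holds the 2 copies of ACTACANTTCC printed before, had 40, 29, 41 and 35 reads untreated and 3, 1, 2, 1 and 1 with zymosan, a ratio of 19.1 (9.42 to 45). Each of the 2 genes was thus at 0 to 3 reads in every WT library with zymosan alone. Both met the count rule through untreated libraries only. Zfp395, whose human counterpart binds GC-rich sequence before the huntingtin gene, was at 559, 596, 567 and 557 normalized read counts in untreated WT libraries and at 16.4, 36.2, 38.9, 22.6 and 40 with zymosan (log2 fold change -4.19 ± 0.17 SE, adjusted p = 3.73e-14). Zfp273, a KRAB gene, went from 73.8, 71.7, 66.2 and 83.3 to 5.87, 5.33, 6.31, 4.52 and 6.86 (log2 fold change -3.64 ± 0.23 SE, adjusted p = 5.89e-11), and the KRAB gene Zfp810 from 318, 287, 292 and 345 to 14.1, 32, 41, 23.7 and 25.1 (log2 fold change -3.49 ± 0.25 SE, adjusted p = 3.81e-10). None of the 5 overlapped between the 2 groups, which was a condition for naming them as the deepest falls. A milder fall of an abundant member was that of Zfp652, whose protein works with a corepressor of the CBFA2T family: 1104, 1099, 1232 and 1104 became 221, 254, 265, 218 and 239 (log2 fold change -2.24 ± 0.087 SE, adjusted p = 2.49e-14).

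Of the 5 members with the highest level per length, zymosan libraries included, Zfp36, Zfp800 and Zfp281 rose with zymosan. Zfp706 and Zfp710 fell, by 0.17 and 0.60 on the log2 scale. Normalized read counts of Zfp36 were 1496, 1658, 1596 and 1459 in untreated WT libraries and 12936, 13567, 13650.4, 12787 and 12929 with zymosan (log2 fold change 3.08 ± 0.19 SE, adjusted p = 3.28e-11). Zfp945, a KRAB gene with 18 fingers, rose from 158, 139.9, 159 and 146 to 2979, 2749, 2871, 2743 and 2878 (log2 fold change 4.24 ± 0.059 SE, adjusted p = 1.84e-20), or 18.8-fold. Every zymosan library thus lay far above every untreated one for both genes, where no overlap was a condition for naming the largest rises. Zfp800 rose from 497, 492, 466 and 504 to 4332, 4285, 4213, 4539 and 4214 (log2 fold change 3.14 ± 0.052 SE, adjusted p = 9.92e-20). Zfp319 rose from 379.7, 379.5, 371 and 297 to 2054, 1982, 1995, 1942 and 1867 (log2 fold change 2.46 ± 0.10 SE, adjusted p = 9.09e-14). Zfp366, known as DC-SCRIPT, a corepressor of nuclear receptors found in dendritic cells, was at 6.15, 9.62, 3.53 and 4.63 before and 52.8, 36.2, 54.7, 41.8 and 38.9 after zymosan (log2 fold change 2.86 ± 0.36 SE, adjusted p = 9.79e-07), a rise at a low level. The KRAB genes Zfp40 and Zfp811 rose by 2.44 and 1.65, the BTB-domain factor Zfp131 by 1.33 and Zfp281, which binds GC-rich promoters, by 1.16 on the log2 scale. Zfp811 was chosen for mention after its value was seen.

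**Figure D2:**
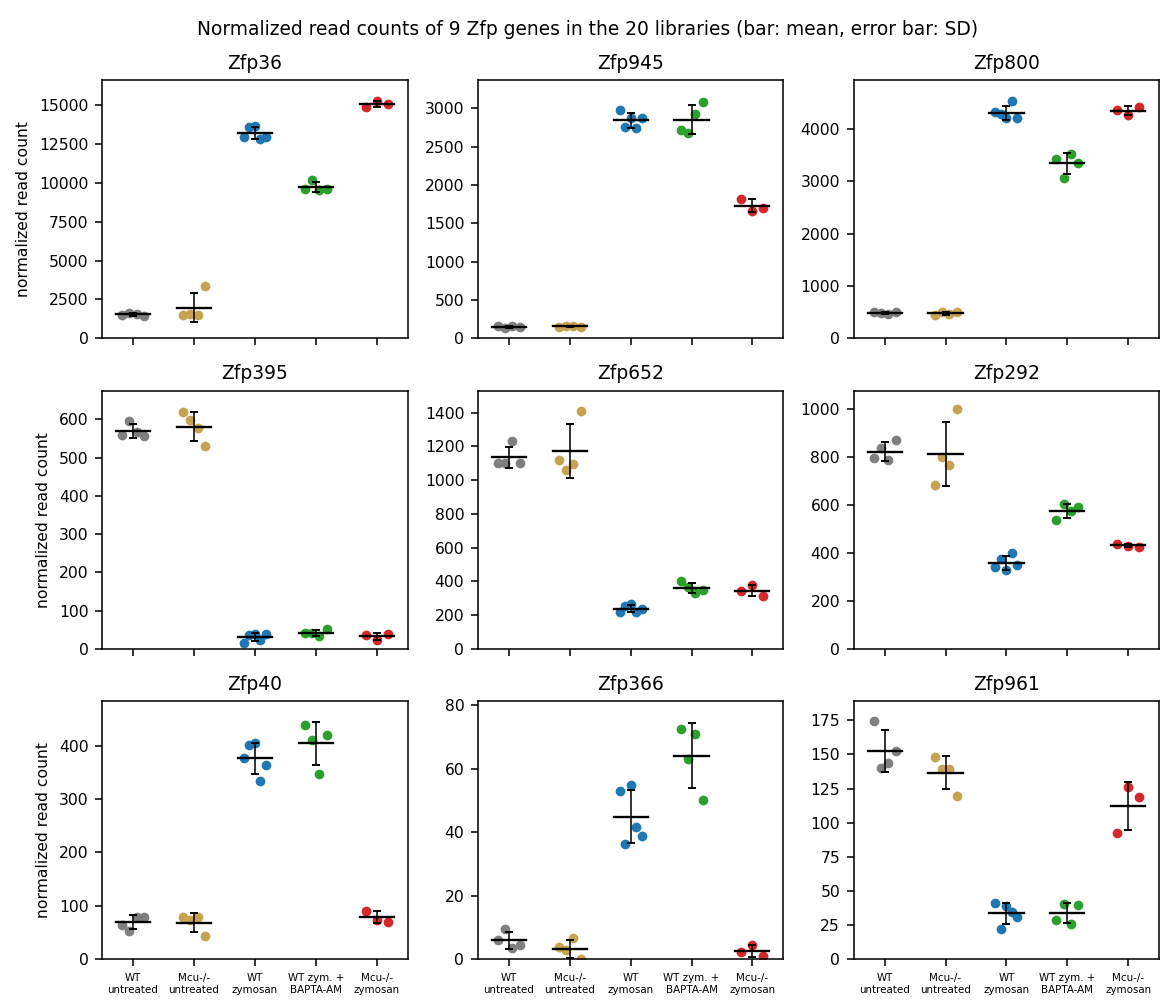
Normalized read counts (vertical axes, starting at 0) of 9 Zfp genes in the 20 libraries, 1 point per library, with the mean of each group as a bar and its SD as an error bar. Zfp36, Zfp945 and Zfp800 are high in all zymosan groups, Zfp395, Zfp652 and Zfp292 are low in them, and Zfp40, Zfp366 and Zfp961 differ between WT and Mcu-/- cells with zymosan.

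Among the members that act on RNA or protein, Zfp36 included, 2 rose and 5 fell of 12 tested, all genes tested having 32.4% higher and 36.8% lower, with a median log2 fold change of -0.06. Zfp622, which matures the large ribosomal subunit, rose by 0.23 on the log2 scale, although its value was -0.26 when scaled by library totals. Zfp598, the ubiquitin ligase that marks collided ribosomes, went from 709.8 ± 29.1 (SD, n = 4) to 486 ± 28.5 (SD, n = 5) normalized read counts (log2 fold change -0.55 ± 0.051 SE, adjusted p = 1.29e-08). Zfp451, a SUMO ligase, had a log2 fold change of -0.77 (adjusted p = 4.41e-09) and Zfp830 one of -0.82 (adjusted p = 2.46e-07). Zfp207, a spindle and splicing factor, was at 2765 ± 107 (SD, n = 4) untreated and 2659 ± 165 (SD, n = 5) with zymosan (adjusted p = 0.394).

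Among regulators of transcription or chromatin with a described role, 4 rose and 11 fell of 17 tested, with a median of -0.38. All genes tested had 32.4% higher and 36.8% lower. The other 3 of 20 on the list were below the count rule (Zfp462, Zfp521 and Zfp423). Zfp148, which binds GC-rich promoters, fell from 1278 ± 56.1 (SD, n = 4) to 638 ± 42.6 (SD, n = 5) (log2 fold change -1.0 ± 0.072 SE, adjusted p = 3.1e-10). Zfp292 fell from 795, 835, 788 and 871 to 341, 375, 327, 399 and 351 (log2 fold change -1.20 ± 0.085 SE, adjusted p = 2.49e-10). The corepressor Zfp703 fell from 1380.3 ± 76.9 (SD, n = 4) to 599 ± 79.3 (SD, n = 5) (log2 fold change -1.20 ± 0.08 SE, adjusted p = 9.11e-11), and Zfp143 from 322 ± 21.1 (SD, n = 4) to 247 ± 36.6 (SD, n = 5) (log2 fold change -0.38 ± 0.14 SE, adjusted p = 0.0183). Zfp263 rose by 0.55 on the log2 scale (adjusted p = 1.79e-06). Zfp592, which partners with Zfp687 in a chromatin complex, had a log2 fold change of -0.051 (adjusted p = 0.328), while Zfp687 fell by 0.51 on that scale (adjusted p = 2.44e-06).

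KRAB proteins listed for a described target or role mostly fell. Zfp809, which silences murine leukaemia proviruses through their primer binding site, went from 346 ± 19.8 (SD, n = 4) to 101 ± 13.3 (SD, n = 5) normalized read counts (log2 fold change -1.77 ± 0.12 SE, adjusted p = 9.59e-11). Zfp445, a guardian of imprinted loci, went from 1773 ± 39.5 (SD, n = 4) to 1241 ± 53.5 (SD, n = 5) (log2 fold change -0.51 ± 0.057 SE, adjusted p = 1.59e-07). Zfp369 fell by 1.66, Zfp932 by 1.22 and Zfp110 by 0.63 on the log2 scale. Zfp568, a repressor of a placental Igf2 promoter, was at 224 ± 19.3 (SD, n = 4) untreated and 261 ± 23.3 (SD, n = 5) with zymosan and did not pass the test (adjusted p = 0.0516). In all, 5 of 6 tested fell and none rose, against 36.8% and 32.4% of all genes tested. Zfp30 was not tested, and Zfp57 and Zfp708 were below the count rule.

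The machinery that KRAB proteins recruit was lowered in part. Of the corepressor genes 4 rose and 9 fell of 16 tested, all genes tested having 32.4% higher and 36.8% lower, with a median of -0.37. Setdb1, the histone H3 lysine methyltransferase of the complex, fell from 1092 ± 41.8 to 245 ± 44.5 normalized read counts (SD; log2 fold change -2.16 ± 0.093 SE, adjusted p = 1.34e-13), and its cofactor Atf7ip fell by 1.24 on the log2 scale. Mphosph8, of the HUSH silencing complex, fell by 1.53 and Trim28 by 0.34. Chd4, a remodelling ATPase, rose by 0.67, Pphln1 by 0.56, the deacetylase Hdac1 by 0.55 and Morc2a by 0.21; scaling by library totals lowers all of these values by the shift of all genes given before. Of 25 deadenylation and decay genes around Zfp36, 9 rose and 10 fell, shares near those of all genes, with a median of -0.029: Mapkapk2, the kinase that phosphorylates Zfp36, rose by 2.31 and the decapping enzyme Dcp2 by 1.77 on the log2 scale, while the deadenylase Cnot8 fell by 1.03.

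KRAB genes lie in tandem arrays, and the falls were spread over them. With 5 or more KRAB members whose starts were under 500 kb apart taken as a cluster, 8 clusters on chromosomes 7, 8, 9, 13 and 17 held 79 members, 78 of them tested. On chromosome 13, from Zfp712 to Zfp273 (mm10, 67038596 to 67827002), 14 of 16 fell. In the largest cluster, from Zfp160 to Zfp40 on chromosome 17 (21008903 to 23193252), 18 of 20 fell, and the neighbours Zfp945 and Zfp40 at its end rose. All 6 tested in the chromosome 7 cluster around Zfp108 (24134169 to 24316666) fell, by 1.82 to 4.17 on the log2 scale. The medians of the 8 clusters ranged from -1.91 to -1.04. KRAB members outside clusters fell in 67 of 80 cases and those in clusters in 67 of 78, with medians of -1.14 and -1.26. Over all genes tested 36.8% fell and 32.4% rose.

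**Figure D3:**
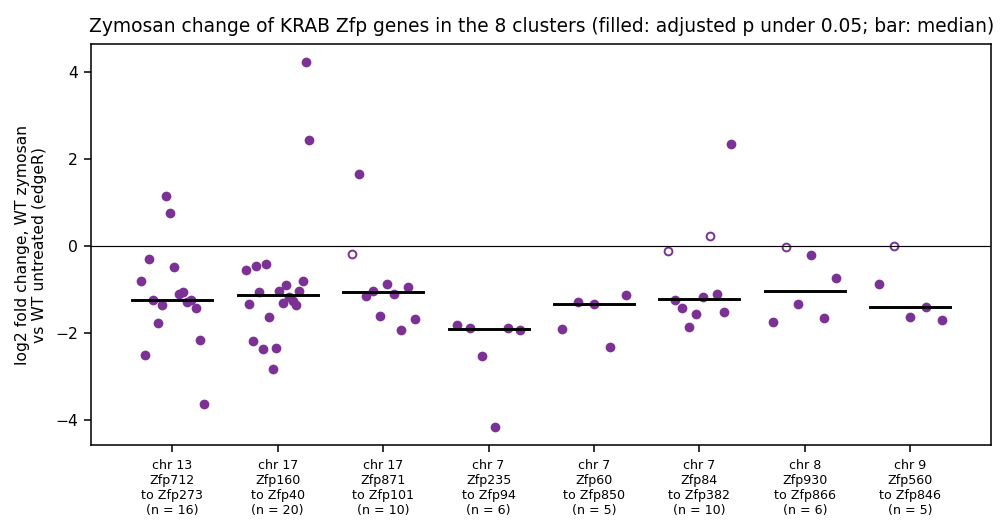
Log2 fold change of KRAB Zfp genes with zymosan in WT cells (vertical axis), by cluster in order along the chromosome, 1 point per gene; filled points passed an adjusted p of 0.05 and bars are medians. Medians lie between -1.91 and -1.04, and Zfp945 at 4.24 is the highest point.

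Members with ACTACANTTCC in the window fell in 34 of 38 cases, with a median log2 fold change of -1.30. Those with a window and without the word fell in 157 of 208, with a median of -0.95. Over all genes tested 36.8% fell, and other genes that hold the word were not followed. A difference by the word was not tested. Within KRAB members the medians were -1.32 with the word and -1.15 without it. The letters GGGCGG, the core of GC boxes, stood in the windows of 87.0% of the members that rose (20 of 23). They stood in the windows of 44.0% of the members that fell and 38.2% of all genes. All genes, here and for GC content, are those with a window, not chosen by read counts. By class the letters stood in 65.1% of the windows of members without a KRAB match and 36.9% of those of KRAB members. Of the 27 members that rose, 19 had no KRAB match, and direction was not separated from class here. GC content of the window had a median of 63.3% for members that rose, 54.3% for those that fell and 52.8% for all genes. By class the median was 62% without a KRAB match and 52.3% for KRAB members. These are descriptions of letters, not of binding.

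The sum over all members, and that over members without a KRAB match, depended on the scaling. All members summed to 88366 ± 172 (SD, n = 4) normalized read counts in untreated WT cells and 87931 ± 452 (SD, n = 5) with zymosan, which overlapped, while their share of all counts was 0.526% and 0.372%, which did not. The KRAB members summed to 25652 ± 624 (SD, n = 4) normalized read counts in untreated WT cells and 19372 ± 356 (SD, n = 5) with zymosan. Members without a KRAB match summed to 62715 ± 653 (SD, n = 4) and 68559 ± 697 (SD, n = 5), and to 61162 ± 575 (SD, n = 4) and 55385 ± 653 (SD, n = 5) when Zfp36 was left out. As shares of all counts, the KRAB members took 0.153% and 0.082% and the others 0.373% and 0.29%, so that the sum without a KRAB match was higher with zymosan by TMM and lower by library totals. The normalized sums of untreated and zymosan libraries of WT cells did not overlap for KRAB members, nor for the others with or without Zfp36. In Mcu-/- cells the KRAB sum was 25132 ± 695 (SD, n = 4) untreated and 16577 ± 358 (SD, n = 3) with zymosan, and with BAPTA-AM and zymosan in WT cells it was 19955 ± 605 (SD, n = 4).

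**Figure D4:**
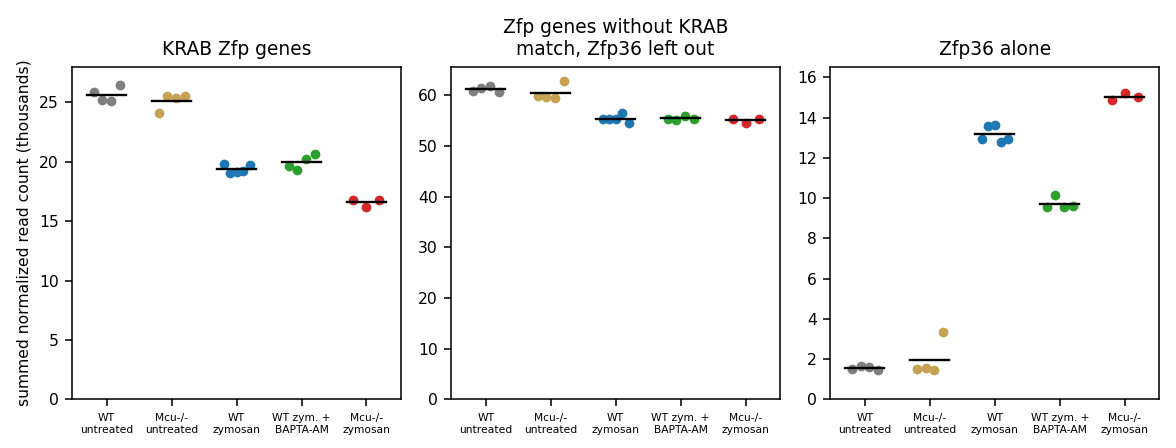
Summed normalized read counts divided by 1000 (vertical axes, starting at 0) of KRAB Zfp genes, of Zfp genes without a KRAB match other than Zfp36, and of Zfp36, 1 point per library with group means as bars. The KRAB sum is lowest in the 3 Mcu-/- zymosan libraries, and Zfp36 is high in every zymosan group.

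With zymosan, Mcu-/- and WT BMDMs differed in many Zfp genes, in both directions. Of 294 members 60 were higher and 67 lower in Mcu-/- cells, against 31.8% and 30.3% of all genes tested, so that fewer members than genes in general were called. The share called depended on level. At a mean of 200 or more normalized read counts 64.5% of members and 68.8% of all genes were called. From 50 to 200 the shares were 44.1% and 56.6%, and under 50 they were 20% and 41.3%. The median was -0.017 for members and 0.016 for all genes. KRAB members had 23 higher and 38 lower, with a median of -0.10, and the others 37 and 29, with a median of 0.043. Libraries of the 2 genotypes did not overlap for 59 members that were higher and 65 that were lower, against 33.1% and 30.9% of all genes. Without untreated Mcu-/- replicate 4, 68 were higher and 78 lower, where all genes gave 36.4% and 33.7%.

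The 3 Mcu-/- zymosan libraries shared features with untreated Mcu-/- replicate 4. Of the 127 members called here, 91 (71.7%) deviated in that untreated library from the untreated WT mean in the same direction, against 44.9%, 48.8% and 46.5% in the other 3 untreated Mcu-/- libraries. Over all genes called, the shares were 86.7% and 49.9% to 50.8%. The fibroblast markers given before were high in the same 4 libraries. Neutrophil markers (6 genes, 2 of them with 10 reads in 3 libraries) summed to 0.226 to 0.353 CPM in the Mcu-/- zymosan libraries and 0.119 in that untreated library, against 1.09 to 2.16 in all others, and the sum of the 7 macrophage markers was lower in the same 4 libraries, at 8358 to 9343 against 13121 to 15276 CPM. By group mean Lyz2, Adgre1 and Itgam were lower in Mcu-/- than in WT zymosan libraries (3242 against 8183, 2839.9 against 4920.1 and 275 against 869 CPM), and Csf1r, Cd68, Fcgr1 and Mertk were higher (1079.8 against 562, 1158 against 309, 573 against 212 and 76 against 60.6 CPM). Whether these markers bear on the members' differences was not tested. The genotype and whatever these 4 libraries have in common cannot be told apart in any value of the Mcu-/- zymosan libraries, given before or from here on.

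Among the members lower in Mcu-/- cells with zymosan, the 2 steepest were at a few reads. Zfp366 had 45, 34, 52, 37 and 34 reads in WT and 2, 4 and 1 in Mcu-/- zymosan libraries, a ratio of 17 (exact 95% counting interval 8.12 to 42.9), beside 5, 4, 9 and 0 reads in untreated Mcu-/- libraries. Zfp69, a KRAB gene, had 28, 34, 33, 37 and 21 and 5, 5 and 1 reads, a ratio of 8.21 (4.46 to 16.8), and 25 reads in untreated Mcu-/- replicate 4 against 116, 139 and 103 in the rest of that group. Zfp40, one of the few KRAB genes that zymosan raised in WT cells, was at 377, 402, 404, 334 and 363 normalized read counts in WT and 91, 74.6 and 70.8 in Mcu-/- libraries (log2 fold change -2.26 ± 0.17 SE, adjusted p = 6.53e-09). Untreated Mcu-/- libraries had 80, 73.3, 79 and 43.4, so that the 3 zymosan libraries overlapped with them and not with WT zymosan libraries. The latter was a condition for naming Zfp40 here. Its neighbour Zfp945 was also lower, at 1822, 1665 and 1697 (log2 fold change -0.72 ± 0.053 SE, adjusted p = 4.94e-09). The KRAB genes Zfp101 and Zfp810 were lower by 2.24 and 1.48 on the log2 scale, Zfp105 by 1.61, Zfp710 by 0.65, Zfp217, which works with CtBP corepressors, by 0.51 and Zfp281 by 0.32.

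Of the members higher in Mcu-/- cells with zymosan, Zfp961, a KRAB gene, was at 92.3, 126 and 119 against 41.1, 22.4, 38.9, 35 and 30.9 in WT (log2 fold change 1.74 ± 0.17 SE, adjusted p = 1.71e-07). Untreated cells of either genotype had 119 to 174. The Mcu-/- zymosan libraries lay above every WT zymosan library, which was a condition for naming the gene. Zfp41 was at 29.1, 26.8 and 19.5 against 8.22, 6.4, 9.46, 9.03 and 8.0 (log2 fold change 1.59 ± 0.27 SE, adjusted p = 6.11e-05). The KRAB genes Zfp493 and Zfp946 were higher by 1.56 and 1.16 and Zfp532 by 1.51 on the log2 scale. Regulators with a described role included Zfp318, higher by 0.82, Zfp143 by 0.53, Zfp148 by 0.45 and Zfp516, a factor of brown fat genes, by 0.56. In the RNA and protein group, Zfp638 was higher by 0.70 and Zfp598 by 0.40, and Zfp593, a factor of ribosome assembly, was lower by 0.83. Zfp36 was at 14881, 15219 and 15038 in Mcu-/- and 12936, 13567, 13650.4, 12787 and 12929 in WT zymosan libraries: the 3 Mcu-/- libraries lay above all WT ones, yet the test over all libraries was not passed (log2 fold change 0.19 ± 0.18 SE, adjusted p = 0.381), and without untreated Mcu-/- replicate 4 the adjusted p was 1.4e-06.

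Of the 16 corepressor genes, 6 were higher and 8 lower in Mcu-/- cells with zymosan, all genes tested having 31.8% higher and 30.3% lower. Cbx5, encoding HP1 alpha, was lower by 1.02 and Uhrf1 by 1.22 on the log2 scale, and Fam208a, of the HUSH complex, was higher by 1.16, Setdb1 by 0.43 and Trim28 by 0.37. Of the 25 genes around Zfp36, 13 were higher and 4 lower, with a median of 0.17: the antiproliferative factors Tob1 and Btg1, which bind the deadenylase, were higher by 1.07 and 0.64, and the scaffold Cnot1 by 0.50.

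The difference of the zymosan responses was tested directly, as the response in Mcu-/- cells minus that in WT. It passed the test above 0 for 33 members and below 0 for 35 of 294, against 15.2% and 20% of all genes, and without untreated Mcu-/- replicate 4 for 62 and 54, against 31% and 29.3%. Zfp366 (-3.23), Zfp69 (-2.72), Zfp40 (-2.26), Zfp101 (-2.12), Zfp945 (-0.78) and Zfp319 (-0.66) had log2 differences below 0. Zfp961 (1.90), Zfp41 (1.47), Zfp318 (0.75) and Zfp638 (0.70) had differences above 0. Zfp36 had one of -0.15 ± 0.26 SE (adjusted p = 0.687) and Zfp800 one of 0.037 ± 0.071 SE (adjusted p = 0.714), and neither passed the test.

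With BAPTA-AM in zymosan-treated WT cells, 24 of 294 members were higher with BAPTA-AM and 7 lower, against 6.43% and 6.33% of all genes tested. The median was 0.089 for members and 0.00049 for all genes. The same test scaled by DESeq2's size factors gave 18 higher and 9 lower, against 5.37% and 7.57% of all genes, and library totals gave 38 higher, against 13.4%. Without untreated Mcu-/- replicate 4, 45 were higher and 18 lower, against 15.3% and 16.5% of all genes. The 2 groups of libraries did not overlap for 22 members that were higher and 19 that were lower, against 11.1% and 13.2% of all genes.

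Several of the members that zymosan had lowered were less low with BAPTA-AM. Zfp292 was at 536, 602, 574 and 592 with BAPTA-AM against 341, 375, 327, 399 and 351 without (log2 fold change 0.68 ± 0.086 SE, adjusted p = 2.87e-05). Zfp652 was at 400.3, 367, 334 and 348 against 221, 254, 265, 218 and 239 (log2 fold change 0.60 ± 0.09 SE, adjusted p = 0.00017). No library of one group reached into the other for either gene, which was a condition for naming them. Both genes stayed below every untreated WT library. Zfp41 was at 14.3, 29.3, 14.4 and 22.9 against 8.22, 6.4, 9.46, 9.03 and 8.0 (log2 fold change 1.30 ± 0.26 SE, adjusted p = 0.00203) and Zfp273 at 8.8, 15.8, 11.8 and 12.5 against 5.87, 5.33, 6.31, 4.52 and 6.86 (log2 fold change 1.06 ± 0.30 SE, adjusted p = 0.0236), again without overlap but at levels under the minimum set for naming. The KRAB gene Zfp871, which did not pass the test with zymosan alone (-0.19, adjusted p = 0.0582), was at 566, 539, 561 and 591 with and 400.5, 401, 401, 399.7 and 446 without BAPTA-AM (log2 fold change 0.46 ± 0.087 SE, adjusted p = 0.00142). Zfp317, whose 2 copies of ACTACANTTCC were printed before, was higher by 0.44 (adjusted p = 0.00854), Zfp329 by 0.54, Zfp335 by 0.32 and the ubiquitin ligase Zfp91 by 0.27.

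Zfp800, which zymosan had raised, was lower with BAPTA-AM, at 3426, 3072, 3523 and 3353 against 4332, 4285, 4213, 4539 and 4214 (log2 fold change -0.37 ± 0.046 SE, adjusted p = 2.54e-05). Zfp62 was lower by 0.29, Zfp703 by 0.41, Zfp326, a factor that couples elongation and splicing, by 0.32 and the KRAB gene Zfp993 by 0.68 on the log2 scale. Zfp36 was at 9577, 10171, 9544 and 9613 with BAPTA-AM and 12936, 13567, 13650.4, 12787 and 12929 without. The libraries did not overlap, and with all libraries in the fit the test was not passed (log2 fold change -0.44 ± 0.17 SE, adjusted p = 0.109). Without untreated Mcu-/- replicate 4, in which Zfp36 was at 3356 against 1486, 1541 and 1479 in the rest of its group, the log2 fold change was -0.44 with an adjusted p of 7.99e-15. Mapkapk2 was lower with BAPTA-AM by 0.23 (adjusted p = 0.00157). In the lists around the members, 1 corepressor gene was higher and 2 were lower of 16, and 3 genes around Zfp36 were higher and 5 lower of 25, all genes tested having 6.43% higher and 6.33% lower.

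The Mcu-/- and BAPTA-AM comparisons share the 5 WT zymosan libraries, and their values are set side by side without a test between them. Zfp41 was higher in both, by 1.59 in Mcu-/- cells and 1.30 with BAPTA-AM, and so was Zfp652, by 0.53 and 0.60. Zfp62 was lower in both, by 0.42 and 0.29. Calls of opposite direction were found for the corepressor Zfp703 (0.26 in Mcu-/- cells, -0.41 with BAPTA-AM), for Zfp609, a partner of the cohesin loader (0.22 and -0.24), for Zfp131 (0.22 and -0.21) and for the RNA-binding Zfp106 (-0.19 and 0.14). Zfp40, Zfp961 and Zfp945, which were called in Mcu-/- cells, had log2 fold changes of 0.10, 0.014 and 0.0031 with BAPTA-AM and did not pass the test there.

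**Figure D5:**
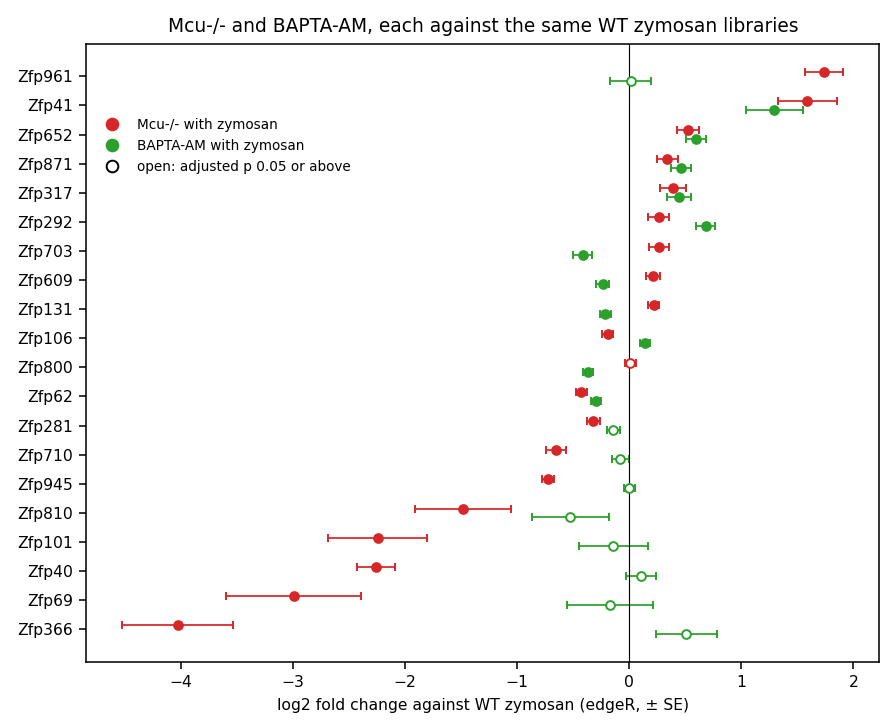
Log2 fold change ± SE (horizontal axis) of 20 Zfp genes in Mcu-/- cells (red) and in BAPTA-AM-loaded WT cells (green), each with zymosan and against the same 5 WT zymosan libraries; open points did not pass an adjusted p of 0.05. Zfp366, Zfp69, Zfp40 and Zfp101 have the lowest Mcu-/- values, from -4.02 to -2.24, and the highest BAPTA-AM value of the 20 is that of Zfp41 at 1.30.

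In untreated cells no member passed the edgeR test between Mcu-/- and WT, where 0.128% of all genes were called higher and 0.222% lower. At an unadjusted p under 0.05 there were 21 of 294 members and 1743 of 11707 genes, DESeq2's Wald test called 1 member lower, and without replicate 4 of untreated Mcu-/- cells 2 members were lower (Zfp638 and Zfp811, named after their values were seen), against 1.53% and 1.83% of all genes. The median log2 fold change was -0.0087, with 0.015 over all genes. Zfp36 was at 1486, 1541, 1479 and 3356 in Mcu-/- libraries against 1496, 1658, 1596 and 1459 in WT, the high value being that of replicate 4. The 8 clusters had medians between -0.034 and 0.026.

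In all, 255 members were called in WT cells with zymosan, and 16 tested members in none of the 4 comparisons of 2 groups. The most abundant of the latter were Zfp207, Zfp644 and Zfp628. Zfp644 was at 426 to 554 and Zfp628 at 227 to 285 normalized read counts over the group means, and a missed threshold does not show that they were equal. Exons of 89 members overlap another gene in the annotation, 70 of them on the opposite strand, among them Zfp36, Zfp652, Zfp319 and Zfp800. Whether the counting used strand is not given in the sources used here, so that reads of these genes and of their neighbours may be mixed. Without the overlapping members, 161 of 205 fell and 17 rose with zymosan in WT cells, against 36.8% and 32.4% of all genes tested. Levels of KRAB paralogs with near-identical finger arrays are uncertain where reads match more than 1 gene.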

How the data were processed

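RNA of 20 BMDM libraries in 5 groups was measured. The authors deposited whole-number read counts per gene, without normalization, obtained by trimming adaptors (cutadapt), mapping to mm10 (STAR) and counting (HTSeq), with FastQC and MultiQC as quality checks; versions, annotation and strand setting are not given in the sources used here. Groups come from the labels. The 3 Mcu-/- zymosan columns are numbered 3, 4 and 5 and were matched to their group only. Members and gene lists were chosen with earlier results of these data known. The genes named follow a rule: role lists, the 5 largest called rises and falls per comparison at 1 CPM or more without overlap between groups, opposite calls, the highest levels per length, members at the edge of the count rule and the most abundant uncalled members; others are said to be chosen afterwards.

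Counts were fitted in R 4.3.3 with edgeR 4.0.16 (TMM, filterByExpr, quasi-likelihood test, all 20 libraries, Benjamini-Hochberg over all 11707 genes tested, adjusted p under 0.05), after the code was tested on simulated data. A normalized read count is the TMM-scaled CPM times the mean library size. Alternatives were DESeq2 1.42.0, its size factors, library totals, 2 other filters, fits of the compared groups only, a replicate block and leaving out each library. Counting intervals cover counting error only. KRAB boxes and C2H2 fingers were read by pattern from coding sequences of GENCODE mouse release 21 (mm10), in which 365 of the 366 symbols were found; a narrower KRAB pattern took 121 members, of which 100 fell with zymosan. Promoter windows are from RefSeq (GRCm38.p6).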

Additional observations from a re-analysis of the deposited data

Results flagged for a closer look

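In 108 groups of 4 or 5 libraries checked over the members with printed values and the sums, 14 libraries lay further from the rest of their group than Dixon's 95% criterion allows, where chance flags about 1 in 20 groups. Untreated Mcu-/- replicate 4 accounted for 6 of them. It was high for Zfp36 (3356 normalized read counts), Zfp281 (1743), Zfp652 (1412), Zfp871 (603) and the sum of members without a KRAB match (66072), and low for Zfp791 (28.6). Untreated Mcu-/- replicate 1 had the lowest KRAB sum of its group (24094).

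In other groups, Zfp36 was high in BAPTA-AM replicate 2 (10171) and Zfp101 high in BAPTA-AM replicate 1 (22). Zfp319 was low in untreated WT replicate 4 (297), Zfp652 was high in untreated WT replicate 3 (1232) and Zfp101 in untreated WT replicate 1 (119). With zymosan alone, Zfp871 was high in WT replicate 5 (446) and Zfp207 in WT replicate 4 (2949).

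The response to zymosan differed between the genotypes by edgeR's interaction term (adjusted p under 0.05) for 12 of 23 members with printed values, some of which were named for their Mcu-/- difference; over all members tested it was 23.1% and over all genes 35.2%. As the log2 response of Mcu-/- minus that of WT, the difference was -3.23 for Zfp366, -2.72 for Zfp69, -2.26 for Zfp40, -2.12 for Zfp101, -0.78 for Zfp945, -0.66 for Zfp319, -0.37 for Zfp281 and -0.33 for Zfp62. It was 1.90 for Zfp961, 1.47 for Zfp41, 0.48 for Zfp652 and 0.32 for Zfp703. The genotype and what the Mcu-/- zymosan libraries share with untreated Mcu-/- replicate 4 cannot be told apart in these values.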

How the results depend on the processing

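Of 375 recomputed counts and medians, 351 stayed within 1.5 times the count or within 1 SD of the median. The fall with zymosan in WT cells kept its direction under every alternative run here. Library totals gave 15 members higher with zymosan and 38 higher with BAPTA-AM, a median of -1.54 with zymosan and -0.070 for Mcu-/- against WT with zymosan, and turned the zymosan value of Zfp622 to -0.26, Zfp326 to -0.34, Zfp106 to -0.43, Zfp384 to -0.36, Zfp568 to -0.27, Zfp993 to -0.44, Zfp62 to -0.017 and Zfp628 to -0.43, all genes moving by the shift given in the report. The zymosan median was -1.02 with DESeq2 size factors, -1.02 by DESeq2 and -0.84 with 10 counts in every library, which keeps 222 members. With BAPTA-AM the higher members numbered 15 without the filter and 41 in the groups compared alone; the lower ones numbered 18 there and 12 by DESeq2, which also called 1 member lower in untreated Mcu-/- cells.

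Leaving out 1 library at a time gave 26 to 31 higher and 219 to 235 lower members with zymosan (median -1.06 to -1.03), 51 to 68 and 54 to 78 in Mcu-/- cells with zymosan (median -0.061 to -0.015), 14 to 45 and 7 to 18 with BAPTA-AM (median 0.076 to 0.11), 0 to 0 and 0 to 2 in untreated Mcu-/- cells (median -0.039 to 0.0086), and 26 to 62 and 29 to 54 for the difference of responses. Leaving out untreated Mcu-/- replicate 4 gave the upper end of every range of counts in this list. The higher members with BAPTA-AM numbered 15 without WT zymosan replicate 1, 14 without replicate 2, and 14 and 15 without BAPTA-AM replicates 2 and 3; the cause was not tested.

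The replicate numbers did not pair the libraries: deviations from group means of same-numbered libraries correlated between -0.088 and 0.085 over 24 pairs. With the number as a replicate block, 27 members rose and 225 fell with zymosan, 18 were higher and 7 lower with BAPTA-AM, and 0 and 0 in untreated Mcu-/- cells. No block was fitted for the comparisons with Mcu-/- zymosan libraries, whose column numbers, 3, 4 and 5, and title numbers, 1, 2 and 3, disagree, so that no column could be tied to a title. Depth limits the members at a few reads: Zfp791, Zfp108, Zfp366 and Zfp69 rest on 7 to 11 reads in their low group.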

Other observations

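Other zinc finger families in the same libraries, picked by symbol after the members' values were known, were counted with zymosan in WT cells. Of the Zscan and Zkscan genes, which pair C2H2 fingers with a SCAN domain and often with a KRAB domain, 14 of 18 fell and 1 rose, with a median log2 fold change of -1.10. Of the Zbtb genes, whose fingers go with a BTB domain, 18 of 37 fell and 12 rose, with a median log2 fold change of -0.27. Of the Klf genes, with a short array of fingers and no KRAB domain, 2 of 11 fell and 8 rose, with a median log2 fold change of 1.55. Of the entries with letters after the Zfp number or without one, 19 of 23 fell and 1 rose, with a median log2 fold change of -0.90. All genes tested had a median of -0.044, with 36.8% lower and 32.4% higher. The differences between families were not tested.

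By finger number, a split that was not tested, the median log2 fold change with zymosan for 10 or more fingers was -1.22 for KRAB members and -0.80 for the rest, and for under 10 it was -1.15 and -0.58. Zfp296 had the highest fitted log2 fold change with zymosan, 4.84, at 0.0212 CPM untreated and 0.811 CPM with zymosan, too low for the naming rule; a fold against so few reads depends on the prior count.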
